A study of Mus musculus with 2 samples.

Results

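The 9 genes described here encode molecules of the extracellular matrix and cell surface in the mouse neurohypophysis (NH), namely the ligand pleiotrophin (*Ptn*), the chondroitin sulfate proteoglycans *Bcan*, *Ncan*, *Vcan* and *Cspg5*, the heparan sulfate proteoglycan *Gpc3*, and the small leucine-rich proteoglycans *Dcn*, *Lum* and *Ogn*. These 9 of 27998 genes were chosen by name, with their levels in these cells already known, so that the levels below are a description and carry no test. The cells came from dissected NH of C57BL/6 male mice aged 3 months, pooled from 5 mice in each of 2 pools that were dissociated with Liberase and papain and captured on the 10x Chromium platform (version 2 chemistry). Both pools are the same untreated wild-type condition, and since tissue of 5 mice was mixed within a pool, the spread between single mice cannot be seen. The dissection also took some of the neighbouring intermediate lobe (IL), and its cells serve as 1 of the 7 cell types compared.

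Proteoglycans are secreted or membrane-bound proteins that carry long sulfated sugar chains. Lecticans such as brevican, neurocan and versican bind hyaluronan and fill the matrix between neural cells, where brevican is best known from astrocytes. Glypicans are anchored in the outer membrane and hold growth factors at the cell surface, while small leucine-rich proteoglycans bind collagen fibrils and mark fibroblasts of connective tissue and of the meninges. Pleiotrophin is a heparin-binding growth factor that binds the sugar chains of several proteoglycans, among them those of the receptor phosphatase encoded by *Ptprz1*. Pituicytes are the resident astroglia of the NH and surround the oxytocin and vasopressin axon endings and the permeable capillaries.

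With the limits of the study, 273 cells of pool 1 and 255 of pool 2 were kept, with medians of 2050.0 and 2330.0 UMIs (unique molecular identifiers, each tagging 1 captured mRNA molecule). No barcode was kept in both pools. They comprised 196 pituicytes, 148 IL cells, 95 macrophage/microglia, 42 T-cell like cells, 23 epithelial-like cells, 13 vascular endothelia and 11 vascular and leptomeningeal cells (VLMC). All 9 pituicyte markers and all 6 IL markers were highest in their own type. Many of them were chosen or used by the study to name these same clusters, so this is no independent check of the labels. The VLMC label needs care, because the cluster held 8 of 9 VLMC markers at their highest level but also all 7 oligodendrocyte markers, with a summed level of 20021 and 19473 CPM (UMIs per 1e6 UMIs of the same cells) in pools 1 and 2. The authors' table names the same cluster OPC/LVMC. The 9 VLMC markers include the members *Dcn*, *Lum* and *Ogn*, so the count of 8 is no independent support for their levels below. The oligodendrocyte markers lay mainly in a pool 1 cell with 167 of their UMIs and a pool 2 cell with 284. Another pool 2 cell had only 2 of them, but 20 UMIs of markers of oligodendrocyte precursors. These were the 3 of the 11 cells with over 10 UMIs of oligodendrocyte or precursor markers. They are called the 3 cells with oligodendrocyte markers below, although 1 of them carried mainly precursor markers. VLMC values of the members, and calls that depend on these 3 cells, are therefore also given without them below.

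*Ptn*, *Bcan* and *Gpc3* were all highest in pituicytes. The sequences before the start of these 3 genes are shown because the genes share this leading type. They were read from RefSeq promoters on GRCm38.p6, which held 6 of the 9 genes, and run 5′ to 3′ along the gene. Capitals mark CCAAT and, on the opposite strand, the GC box GGGCGG. Of the 250 bases before the *Ptn* start, the last 41 lie inside the gene in the GENCODE annotation and are left out.
*Ptn* (chr6:36810221-36810429, minus strand): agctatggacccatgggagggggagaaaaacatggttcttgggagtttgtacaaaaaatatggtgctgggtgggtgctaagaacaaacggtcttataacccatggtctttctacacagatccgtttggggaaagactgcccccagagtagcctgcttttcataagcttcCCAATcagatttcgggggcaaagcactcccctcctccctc
*Bcan* (chr3:88000357-88000606, minus strand): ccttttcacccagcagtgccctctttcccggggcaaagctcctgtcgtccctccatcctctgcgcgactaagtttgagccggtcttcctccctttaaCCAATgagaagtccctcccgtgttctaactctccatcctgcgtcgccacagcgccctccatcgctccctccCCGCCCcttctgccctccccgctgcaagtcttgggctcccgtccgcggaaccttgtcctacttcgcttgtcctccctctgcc
*Gpc3* (chrX:52613975-52614224, minus strand): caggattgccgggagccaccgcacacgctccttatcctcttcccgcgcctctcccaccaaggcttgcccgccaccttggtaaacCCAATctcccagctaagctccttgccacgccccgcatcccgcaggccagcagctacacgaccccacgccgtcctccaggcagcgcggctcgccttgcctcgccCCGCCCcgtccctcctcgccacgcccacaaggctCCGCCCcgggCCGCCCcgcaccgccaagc

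Each of the 3 windows held CCAAT on the strand of the gene, a sequence that 33.8% of all 32851 RefSeq promoter windows of 250 bases held on either strand. GGGCGG was found 1 time before *Bcan* and 3 times before *Gpc3* but not before *Ptn*, against 32.7% of all windows. None held TATAAA (12.4% of all windows), TAATTA (4.84%) or ACAAAG (16.5%) on either strand. Over the full 250 bases, the share of G and C was 52.0% before *Ptn*, 62.0% before *Bcan* and 71.6% before *Gpc3*, where the median window had 52.4%.

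*Ptn* was found with 2332 UMIs in 263 cells, and 93.4% of these UMIs lay in pituicytes. The gene (ENSMUSG00000029838) spans chr6:36714929-36810220 of GRCm38 on the minus strand and overlaps no other annotated gene. In pituicytes *Ptn* reached 4031 CPM in pool 1 and 4845 CPM in pool 2, with a mean of 4438 ± 575 (SD, n = 2 pools). VLMC came next at 2355 and 861 CPM, so that both pools of pituicytes were above both pools of VLMC, and the mean in pituicytes was 2.76 times that in VLMC. Epithelial-like cells followed with 207 and 254 CPM, and IL cells with 217 and 120 CPM. The pools of these 2 types overlapped. Macrophage/microglia were lower, at 90.2 and 27.8 CPM. T-cell like cells and vascular endothelia held 0 *Ptn* UMIs, which allows levels of up to 35.7 CPM and 126 CPM.

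Almost every pituicyte held the *Ptn* transcript. It was found in 187 of 196 pituicytes, or 95.4% (exact 95% interval 91.5 to 97.9%), and still in 91.3% after each cell was thinned to 1000 UMIs. In IL cells the share was 37.8% and fell to 14.9% after thinning, in epithelial-like cells it was 39.1% and 17.4%. Free RNA in the droplets can give such UMIs, and whether it did here was not tested. The share was 4.21% in macrophage/microglia. No UMI was seen in the 42 T-cell like cells, where 3 cells with a UMI would be a share of 7.14%, and the exact 95% interval reaches 8.41%. These immune types had median depths of 1739 and 1596 UMIs per cell against 3249 in IL cells. From the free RNA of pool 1, scaled by the IL hormone gene *Pomc* in immune cells, 46.1 CPM of *Ptn* were expected in pool 1 and 39.2 CPM in pool 2. The IL and epithelial-like levels were above these values in both pools, whereas those of macrophage/microglia lay on either side of them and 8 of their 11 UMIs were in 1 cell.

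*Bcan*, which encodes the lectican brevican of the neural matrix, had 284 of its 291 UMIs (97.6%) in pituicytes. Its gene (ENSMUSG00000004892) lies at chr3:87987531-88000230 on the minus strand with no overlapping gene. Pituicytes held 539 CPM in pool 1 and 619 CPM in pool 2 (579 ± 56.9, SD, n = 2 pools). The remaining 7 UMIs were 1 each in 6 IL cells (14.2 and 8.01 CPM) and in 1 epithelial-like cell, and the expected level from free RNA was 5.10 and 4.34 CPM. The other 4 types were at 0, which in VLMC allows up to 127 CPM. A *Bcan* UMI was seen in 62.8% of pituicytes (55.6 to 69.5%) and, after thinning, in 40.3%. At this depth a cell without a UMI is not a cell without the transcript.

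*Gpc3*, the glypican on the X chromosome, had the same leading type. Of its 506 UMIs 486 (96.0%) were in pituicytes, with 942 and 1042 CPM in the pools (992 ± 70.3, SD, n = 2 pools), and 78.1% of pituicytes held a UMI (57.1% after thinning). VLMC were second at 236 and 132 CPM, from 4 UMIs in 4 cells, above the 17.1 and 14.5 CPM expected from free RNA. All 4 were outside the 3 cells with over 10 UMIs of oligodendrocyte or precursor markers. Without those 3 cells the VLMC level was 326 and 321 CPM. IL cells had 28.4 and 12.0 CPM, near the free RNA level, and vascular endothelia 0 (limit 126 CPM). *Gpc3* (ENSMUSG00000055653, chrX:52272426-52613950, minus strand) overlaps 4 annotated genes, *Gm14582* and *A630012P03Rik* on the opposite strand and the microRNAs *Mir6384* and *Mir717* on its own strand. Counts were compared between cell types for each gene and not between genes, since reads were taken from the 3′ end and not scaled by length.

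**Figure D1:**
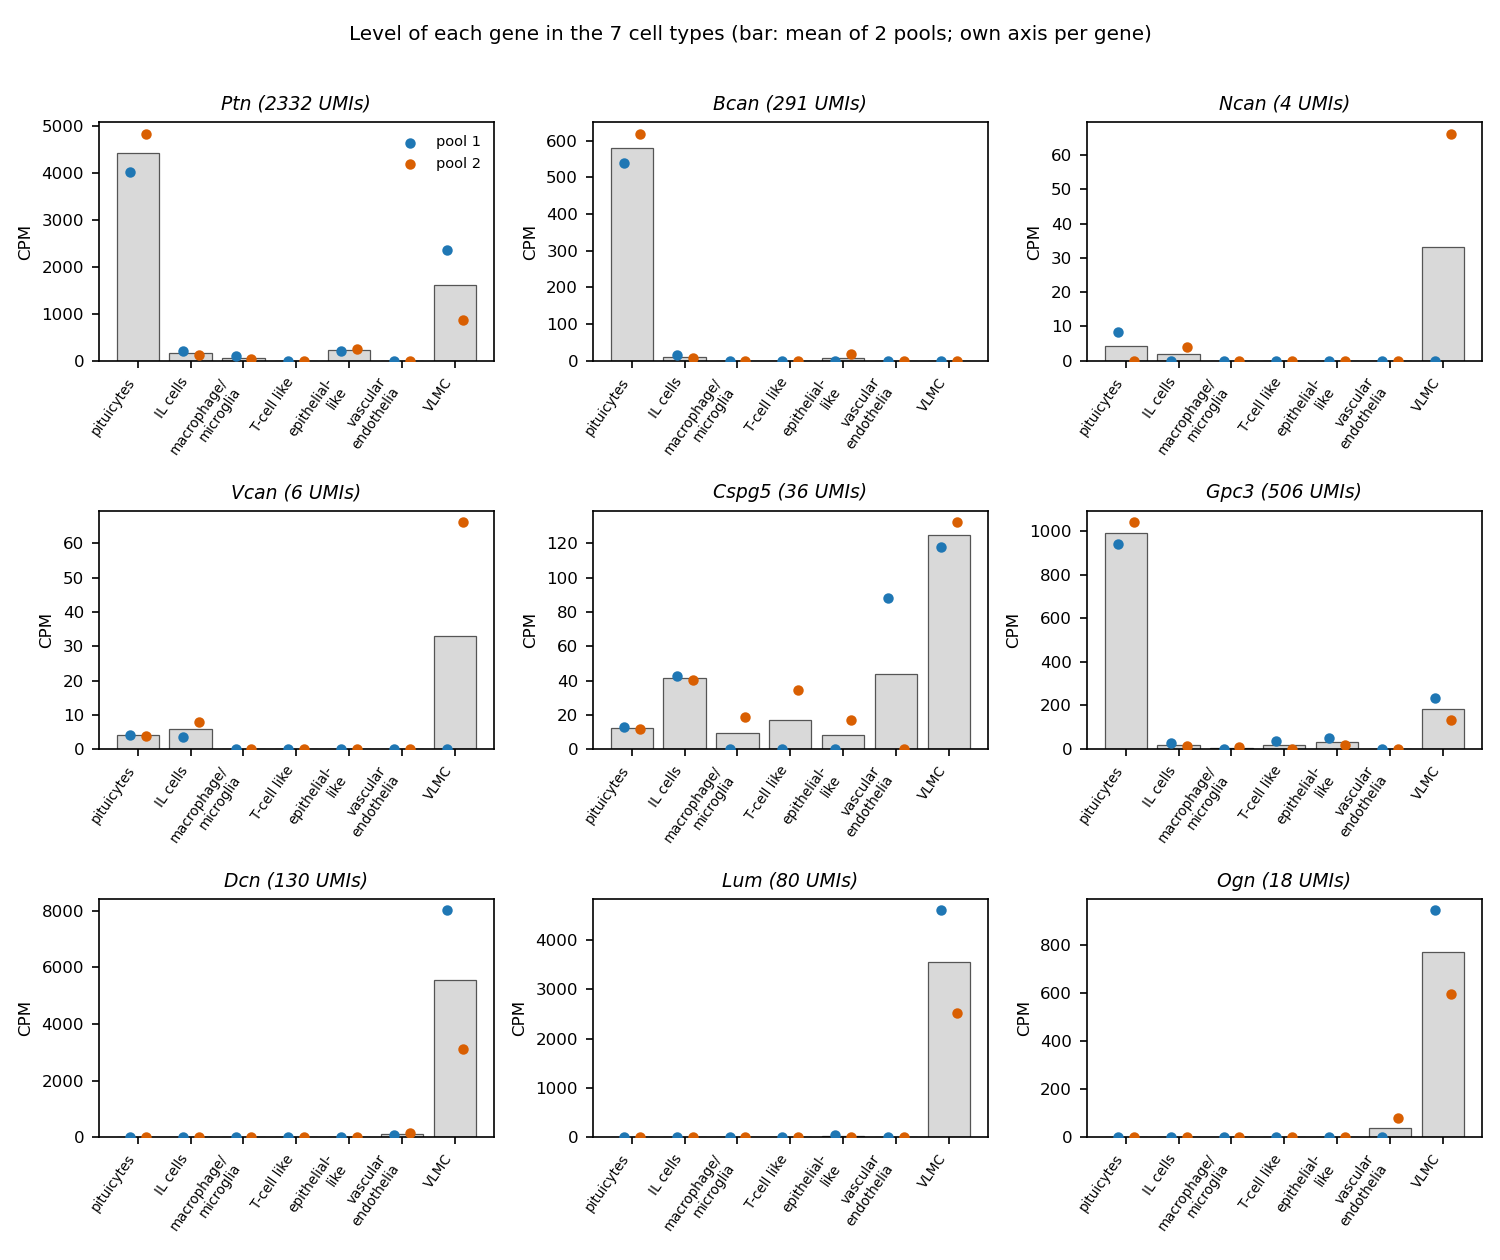
Level of each of the 9 genes in the 7 cell types, in CPM on a linear axis that differs between genes; bars are the mean of 2 pools and points the pools. *Ptn* (4031 and 4845 CPM), *Bcan* and *Gpc3* stood highest in pituicytes and *Dcn* (8008 and 3113 CPM), *Lum* and *Ogn* in VLMC, while the VLMC bars of *Ncan* and *Vcan* rest on 1 UMI each.

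Pituicytes varied among themselves in all 3 genes. The study split them into clusters a, b and c of 87, 55 and 54 cells. *Ptn* was lowest in c by the authors' mean values of 47.9, 46.7 and 41.3 UMIs per 10000. Summed per pool, *Ptn* reached 5078 and 4766 CPM in pituicytes a, 3564 and 5423 CPM in b, and 3615 and 4683 CPM in c, so that b overlapped both others, while both pools of a were above both of c. Single cells ran from 0 to 206 *Ptn* UMIs per 10000, with quartiles of 25.7 and 61.8 and a median of 40.0.

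*Bcan* and *Gpc3* were ordered differently over the 3 clusters. *Bcan* was lowest in pituicytes a, at 333 and 570 CPM against 662 and 629 CPM in b and 604 and 733 CPM in c, and both pools of a were below both pools of b and of c. The authors' means were 4.91, 8.42 and 7.74 UMIs per 10000. *Gpc3* was highest in pituicytes a, at 1230 and 1259 CPM against 781 and 1074 CPM in b and 846 and 494 CPM in c, and again the pools of a did not overlap those of b or c. The clusters were formed on the same counts, so these orders describe them and were not tested. Mitochondrial share and depth moved with the clusters. The median mitochondrial share was 9.90% in a, 17.0% in b and 20.7% in c, and the median depth 2214, 1452 and 2782 UMIs, and the part of these in the orders was not tested.

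The *Bcan* level also differed with mitochondrial share when cells were divided at 10%. In pituicytes under 10%, *Bcan* was at 76.3 CPM in pool 1, from 2 UMIs in 11 cells, and at 466 CPM in pool 2, from 55 UMIs in 38 cells. In those between 10 and 25%, it was at 597 CPM and 753 CPM. In each pool it was thus higher in cells with the larger mitochondrial share, while *Gpc3* changed in opposite directions (801 to 960 CPM in pool 1, 1161 to 937 CPM in pool 2). *Ptn*, like *Bcan*, was higher with the larger mitochondrial share in each pool (3661 to 4078 CPM in pool 1, 4408 to 5225 CPM in pool 2).

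**Figure D2:**
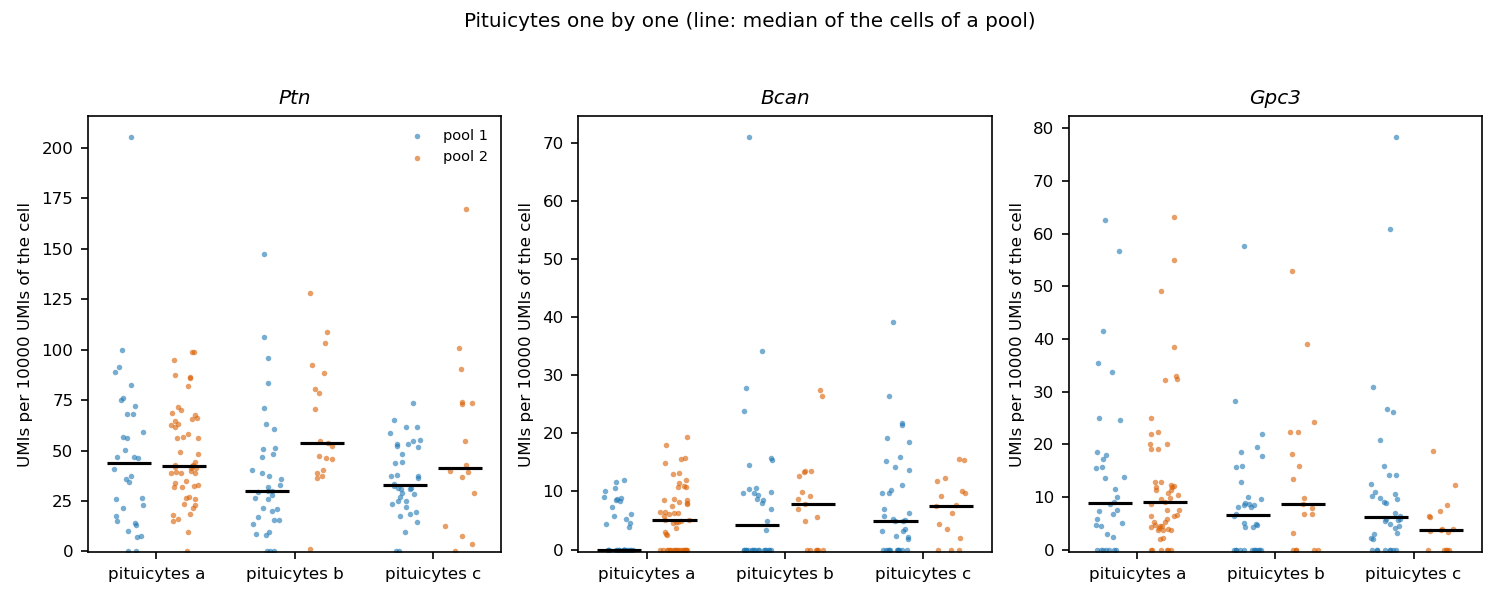
UMIs per 10000 UMIs of the cell for *Ptn*, *Bcan* and *Gpc3* in 196 pituicytes, by cluster a, b or c and pool; each point is a cell and each line the median of a pool. Over all clusters *Ptn* runs from 0 to 206, and within each pool the median of *Bcan* is lowest in pituicytes a and that of *Gpc3* in pituicytes c.

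Most pituicytes with *Bcan* or *Gpc3* also held *Ptn*, as did most pituicytes without them. Of the 123 pituicytes with *Bcan*, 122 also held *Ptn* (99.2%), as did 65 of the 73 without *Bcan* (89.0%). Of the 153 with *Gpc3*, 152 held *Ptn* and 102 held *Bcan* (66.7%), while 21 of the 43 pituicytes without *Gpc3* held *Bcan* (48.8%). Cells with *Gpc3* were deeper, with a median of 2178 UMIs against 1931. After thinning to equal depth, *Bcan* was found in 42.0% of cells with *Gpc3* and in 38.1% of cells without, a small gap in sparse counts that is no finding.

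The 2 other lecticans were barely detected. *Ncan*, encoding neurocan, had 4 UMIs in 4 cells of the whole dataset, and *Vcan*, encoding versican, had 6 in 6 cells. Pituicytes and IL cells held 2 and 1 of the *Ncan* UMIs, and 2 and 3 of the *Vcan* UMIs. In these 2 types they were at most at 8.49 CPM in any pool (*Ncan* in pituicytes of pool 1). That is below the 12.7 CPM which a count of 0 would allow in the same cells. The highest level of both was in VLMC, at 66.2 CPM in pool 2 and 0 in pool 1, and it came from a single UMI of each. Both UMIs were in the same cell, described below. Within the depth of this dataset brevican was therefore the only lectican of the 3 with a level that could be compared between types. *Ncan* (ENSMUSG00000002341, chr8:70093085-70120873, minus strand) overlaps a microRNA gene, and *Vcan* (ENSMUSG00000021614, chr13:89655312-89742509, minus strand) overlaps *Gm16318* and *Gm4117* on the other strand.

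*Cspg5*, which encodes the membrane-spanning proteoglycan neuroglycan C, was spread over all 7 types with 36 UMIs in 32 cells. Most of these (22 UMIs in 19 cells) were in IL cells, with 42.7 and 40.1 CPM in the pools, above the 12.7 and 11.8 CPM of pituicytes. In IL cells it was higher in the cluster that the authors named neural progenitor b (56.1 and 59.0 CPM) than in neural progenitor a (28.8 and 27.1 CPM). Both clusters together held only the 22 UMIs. Cluster b also had the larger median depth (3673 against 2984.5 UMIs) and mitochondrial share (13.7% against 8.87%), whose part was not tested. Free RNA accounted for an expected 0.710 and 0.604 CPM. The nominal maximum was again in VLMC, with 118 and 132 CPM, but from 3 UMIs (95% counting interval 26.2 to 372 CPM). Without the 3 VLMC cells with oligodendrocyte markers it was 163 and 0 CPM there, from 1 UMI. After thinning, 3.38% of IL cells and 0.510% of pituicytes held a UMI. The gene (ENSMUSG00000032482) lies at chr9:110243783-110262576 on the plus strand and overlaps *Gm43622* on the opposite strand.

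Among the members, the small leucine-rich proteoglycans *Dcn*, *Lum* and *Ogn* had another leading type than *Ptn*, *Bcan* and *Gpc3*. *Dcn*, encoding decorin, was at 8008 CPM in VLMC of pool 1 and 3113 CPM of pool 2 (5561 ± 3462, SD, n = 2 pools), with 115 of 130 UMIs (88.5%) in this type of 11 cells. *Lum*, encoding lumican, was at 4593 and 2517 CPM (3555 ± 1468), with 77 of 80 UMIs. *Ogn*, encoding osteoglycin, was at 942 and 596 CPM (769 ± 245), with 17 of 18 UMIs. The paper lists these 3 genes as known markers of VLMC, so their leading type is not independent of the label. All other cells together held 19 UMIs of the 3 genes in 13 of 517 cells. In pituicytes *Dcn* was at 25.5 and 3.95 CPM, *Lum* at 8.49 and 0 CPM, and *Ogn* was not seen in 489135 UMIs, which allows up to 6.13 CPM. The second type for *Dcn* was vascular endothelia at 88.1 and 160 CPM from 3 UMIs, above the 18.6 and 15.8 CPM expected from free RNA. *Dcn* (ENSMUSG00000019929, chr10:97479609-97518143) and *Lum* (ENSMUSG00000036446, chr10:97565128-97572703) are neighbours on the plus strand of the same chromosome, and *Ogn* (ENSMUSG00000021390, chr13:49608046-49624501, plus strand) overlaps *Cenpp* on the opposite strand.

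Within the VLMC cluster these genes divided the cells. In pool 1, the 5 cells held, one by one, 9, 33, 23, 3 and 0 *Dcn* UMIs, 17, 5, 17, 0 and 0 *Lum* UMIs, and 0, 4, 2, 2 and 0 *Ogn* UMIs. In pool 2, the 6 cells held 0, 0, 19, 0, 28 and 0 *Dcn* UMIs, 0, 0, 10, 0, 28 and 0 *Lum* UMIs, and 0, 1, 2, 0, 5 and 1 *Ogn* UMIs. Of the 11 cells 6 thus carried 207 of the 209 UMIs, 5 held *Dcn* and *Lum* together, 4 held all 3, and 3 held none. All cells with *Lum* also held *Col1a1*, which encodes a chain of the fibrillar collagen that lumican and decorin bind.

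The 3 cells with none were the 3 with over 10 UMIs of oligodendrocyte or precursor markers. A cell of pool 1 had 39 UMIs of *Mbp*, which encodes a protein of myelin, and a cell of pool 2 had 75. The third, a pool 2 cell of 2918 UMIs, had no *Mbp* UMIs but 15 of *Olig1*, 6 of *Pdgfra*, 2 of *Gpr17* and 1 of *Cspg4*, genes of oligodendrocyte precursors. This cell held the only *Ncan* and *Vcan* UMIs of the cluster, 2 of its 3 *Cspg5* UMIs and 6 of its 33 *Ptn* UMIs. Without the 3 cells, *Dcn* was at 11070 and 7543 CPM, *Lum* at 6349 and 6099 CPM and *Ogn* at 1302 and 1444 CPM, so that the pools of all 3 genes were closer to each other on a ratio scale than with these cells. *Ncan* and *Vcan* were then 0 in VLMC, where 0 of 12374 UMIs were seen. Their nominally highest types were then pituicytes for *Ncan* (4.24 CPM, from 2 UMIs) and IL cells for *Vcan* (5.79 CPM, from 3 UMIs). Even with all cells of the VLMC cluster a count of 0 allows up to 127 CPM, and with fewer cells it allows more. The leading type of these 2 genes therefore cannot be told.

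*Ptn* in VLMC did not follow this division. Its 33 UMIs were in 7 of 11 cells, and 14 of them were in 1 pool 1 cell that held 3 *Dcn* and no *Lum* UMIs. The 3 cells with oligodendrocyte markers had 1070 CPM of *Ptn* and the other 8 cells 1697 CPM (2605 and 802 CPM in the pools). *Bcan* was at 0 in all 11.

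**Figure D3:**
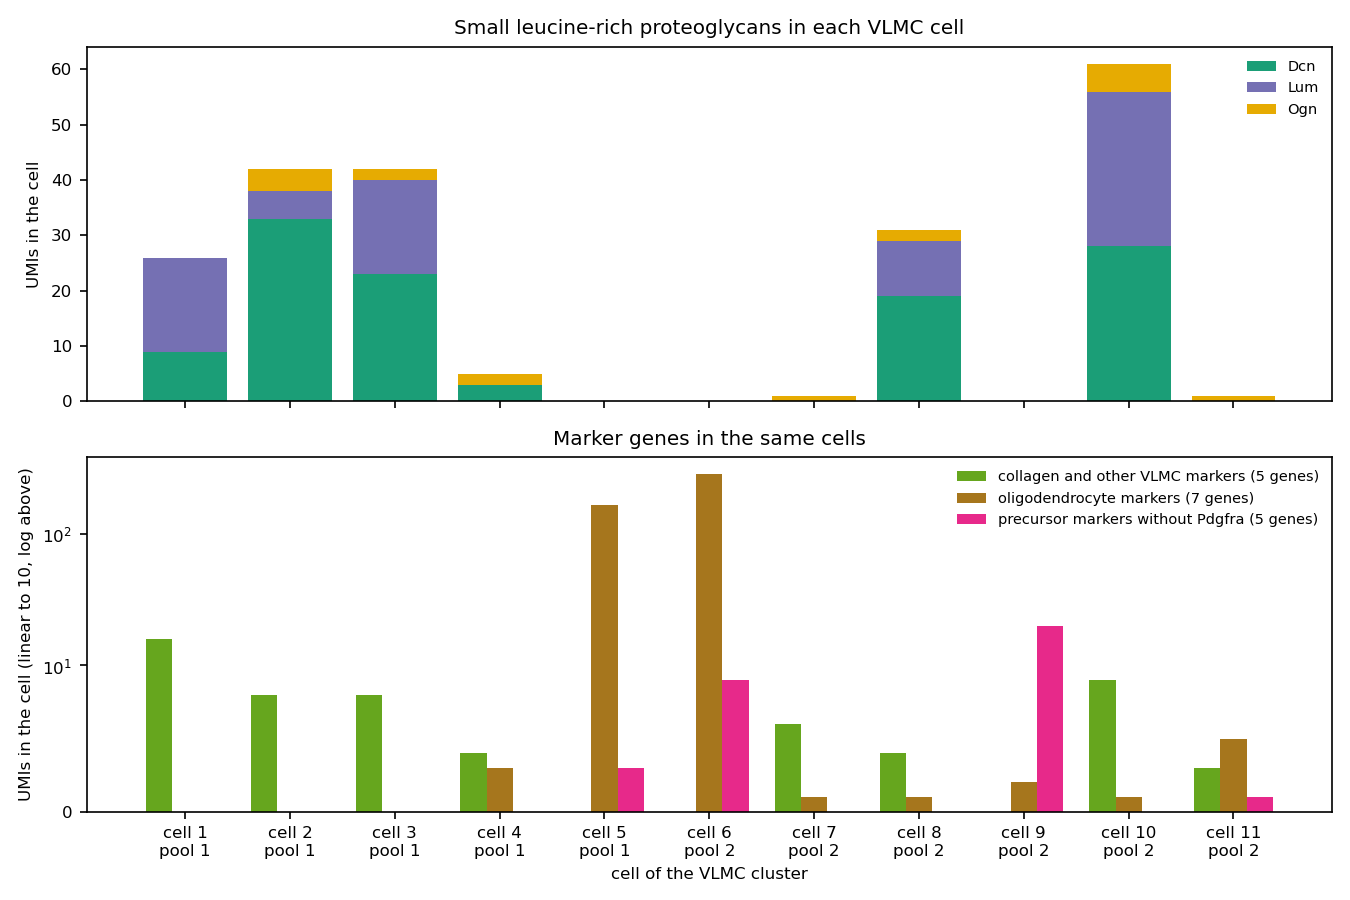
UMIs in each of the 11 cells of the VLMC cluster: above, *Dcn*, *Lum* and *Ogn* stacked on a linear axis, and below, the sums of 3 marker groups on an axis that is linear to 10 UMIs and logarithmic above. Cells 5, 6 and 9 had over 10 oligodendrocyte or precursor UMIs and held no *Dcn*, *Lum* or *Ogn*.

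The genes that most resembled each member were found by the correlation of log2(CPM + 100) over the 14 sums of type and pool, among 4503 other genes. The 14 sums share 2 libraries and are dominated by the leading type, and the correlations are a description. Nearest to *Bcan* were *Col25a1* (r = 0.998), *Htra1* (0.998) and *Mamdc2* (0.997), and *Col25a1* was at 1617 and 1724 CPM in pituicytes and 0 in VLMC. Nearest to *Ptn* were *Rnf145* (0.956), *Cacnb4* (0.932) and *Tspan7* (0.923), and nearest to *Gpc3* were *Abca8a* (0.967), *Rnf145* (0.952) and *Scube1* (0.935). Among the members, *Ptn* and *Gpc3* had r = 0.934, *Bcan* and *Gpc3* 0.901 and *Ptn* and *Bcan* 0.758, the last with *Bcan* at 0 in VLMC, where *Ptn* was second highest. *Dcn* and *Lum* had 0.973. *Dcn* was nearest to *Efemp1* (0.989), *Apod* (0.987) and *Mobp* (0.977), and *Lum* to *Mobp* (0.995), *Enpp2* (0.995) and *Cldn11* (0.993).

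Likeness over types did not mean the same cells. In the VLMC cluster *Mobp*, a myelin gene, had 17 UMIs in the 3 cells with oligodendrocyte markers and 0 in the other 8, and *Enpp2* had 13 and 0. *Cldn11* had 20 and 3. *Lum* had its 77 UMIs in the other 8 cells. In contrast *Efemp1*, a fibulin of the matrix, had 31 of 32 UMIs and the lipocalin *Apod* 91 of 109 in those 8 cells.

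The remaining genes of the pathway were taken from 7 lists of proteoglycans, their enzymes and pleiotrophin receptors, with 95 genes besides the 9. Only 24 passed the filter on low counts, and a gene that passed through the single type where it is high had to differ. Against the mean of the other 6 types, edgeR's quasi-likelihood test called 20 of the 24 higher in at least 1 type, where it called 52.2% of all 4510 genes tested, and 2 lower (*Mdk* and *Prelp*, both in T-cell like cells), against 8.16%. With the pool as a replicate block, 1 of these 2 lower calls was left (*Prelp*), against 7.56% of all genes. The cells were clustered on these genes too, so the calls describe the types and are no independent evidence.

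By type, 12 of the 24 were called higher in pituicytes (16.8% of all genes), with a median ln fold change of 1.68 against 0.41 over all genes tested. In VLMC it was 8 (2.88%), with medians of 1.75 and -0.26. Without the 3 cells with oligodendrocyte markers it was 6 of 22 tested (1.59%). With all cells, 6 were called in epithelial-like cells (7.96%). There were 5 in vascular endothelia (3.41%) and 3 each in IL cells (16.7%), macrophage/microglia (16.5%) and T-cell like cells (9.47%). DESeq2 called 6 in pituicytes (7.94% of all genes) and 4 in VLMC (1.75%).

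Among the pleiotrophin family and its receptors, 4 of 5 tested genes were called higher in pituicytes, where 16.8% of all genes were. *Itgav*, an integrin chain, was highest there in both pools, at 136 and 264 CPM. VLMC came next at 118 and 199 CPM, from 4 UMIs. Without the 3 cells with oligodendrocyte markers VLMC were at 163 and 0 CPM, from 1 UMI, and in pool 1 thus above pituicytes. *Mdk*, encoding midkine, the other member of the pleiotrophin family, was called higher in pituicytes (284 and 320 CPM) but was highest in VLMC, at 824 and 397 CPM from 13 UMIs (1140 and 642 CPM without the 3 cells). *Lrp1*, a large endocytic receptor, was also highest in VLMC, at 2002 and 331 CPM from 22 UMIs (2767 and 481 CPM without them). *Ptprz1*, singled out after its values were seen because it encodes a receptor of pleiotrophin, was at 165 and 221 CPM in pituicytes. IL cells had 35.6 and 28.1 CPM and epithelial-like cells 0 and 33.8 CPM, the latter from 2 UMIs. It was 0 in T-cell like cells, vascular endothelia and macrophage/microglia, which over both pools allows up to 35.7, 126 and 15.3 CPM. *Ptprz1* was also called in VLMC, at 0 and 397 CPM, which in pool 2 was above pituicytes. All 6 UMIs there were in the cell with precursor markers. Without the 3 cells it was not called in VLMC.

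Of other proteoglycans, *Spock2*, a secreted testican, was the named gene of IL cells with 132 and 156 CPM. The syndecan *Sdc4* was highest in epithelial-like cells at 777 and 491 CPM, as were agrin (*Agrn*, 207 and 102 CPM) and *Ext1*, an enzyme that builds heparan sulfate chains (207 and 186 CPM). Without the 3 VLMC cells with oligodendrocyte markers, VLMC were at 488 and 642 CPM of *Sdc4*, from 7 UMIs. *Ext1* was then at 0 and 321 CPM in VLMC, from 2 UMIs. In pool 2 VLMC were thus above epithelial-like cells for both genes. Besides *Mdk* and *Lrp1*, the genes called higher in VLMC and highest there in both pools were *Bgn*, *Col18a1* and *Sulf2*. *Bgn*, the gene of biglycan, a relative of decorin, was at 942 and 265 CPM from 12 UMIs. *Col18a1*, which encodes a collagen with heparan sulfate chains, was at 353 and 132 CPM from 5. The extracellular heparan sulfatase *Sulf2* was at 236 and 331 CPM from 7. *Thbd* was also called in VLMC, at 707 and 132 CPM from 8 UMIs (977 and 321 CPM without the 3 cells). In pool 2 its 132 CPM were below the 160 CPM of vascular endothelia. Without the 3 cells with oligodendrocyte markers, *Bgn* was at 1302 and 642 CPM, *Col18a1* at 488 and 321 CPM, and *Sulf2* at 0 and 321 CPM. *Sulf2* then no longer passed the filter on low counts and was not tested. *Prelp*, also a small leucine-rich proteoglycan, was singled out after its values were seen. It was called higher in pituicytes (310 and 245 CPM), epithelial-like cells (311 and 186 CPM) and VLMC. Its VLMC level was 1178 and 132 CPM from 12 UMIs (1628 and 321 CPM without the 3 cells). Of the lists, 1 of 11 lectican and partner genes and 2 of 20 heparan sulfate enzymes passed the filter and were tested. The same held for 3 of 22 enzymes of the linker and of chondroitin or dermatan sulfate. The filter works on CPM per sum, so that a few UMIs in a small type could pass and more UMIs in a large type could fail. *Ext2*, with 40 UMIs in pituicytes, was not tested, while *Sulf2*, with 7 UMIs in VLMC, was. Most enzymes of the sugar chains were thus left untested by this filter.

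The members also differed in how much of their RNA was outside cells. In pool 1, whose matrix holds all barcodes, the 157608 barcodes with 1 to 50 UMIs give a measure of free RNA. *Dcn* was at 305 CPM there (577 UMIs) and at 111 CPM in the kept cells of the same pool, a ratio of 2.74, which is above the ratio of 99.0% of the 6915 genes with at least 30 UMIs. *Lum* had 164 against 60.0 CPM (2.74) and *Ogn* 27.0 against 11.4 CPM (2.36). *Ptn* and *Bcan* were lower in free RNA than in cells, with 756 against 1491 CPM for *Ptn* (0.507) and 83.5 against 187 CPM for *Bcan* (0.446), and their ratios were above those of 58.8% and 47.7% of genes. *Gpc3* had 280 against 336 CPM (0.834), with overlapping counting intervals and a ratio above that of 91.5% of genes. The median of all genes was a log2 ratio of -1.11. The ratio depends on how many cells of each type were kept, here 5 VLMC, and free RNA of this kind was not measured in pool 2, whose matrix holds 1500 barcodes. Among barcodes outside the limits for reasons other than the mitochondrial share alone, *Dcn* was at 153 CPM in pool 1 and 70.3 CPM in pool 2, where the kept cells had 111 and 71.6 CPM. *Lum* was at 66.2 and 8.61 CPM there, where the kept cells had 60.0 and 52.3 CPM. In these barcodes of pool 2, neither gene was thus above the kept cells.

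**Figure D4:**
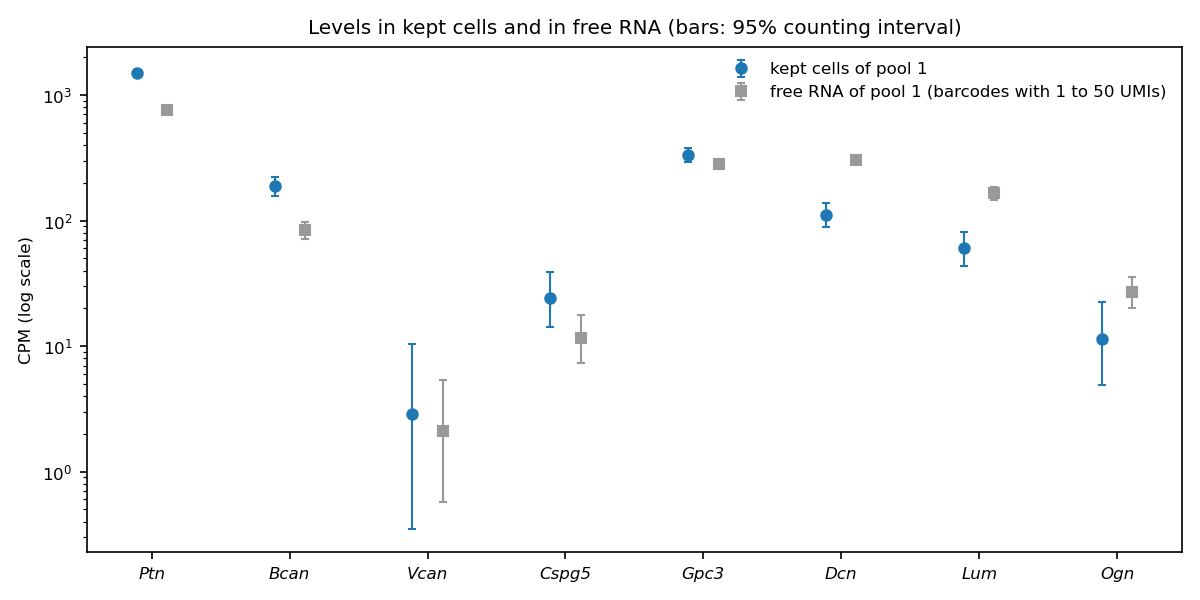
Levels of 8 genes in CPM on a log axis in the kept cells of pool 1 and in its barcodes with 1 to 50 UMIs, with exact 95% counting intervals; *Ncan* is left out because free RNA held 0 UMIs. *Dcn*, *Lum* and *Ogn* are higher in free RNA, with 305 against 111 CPM for *Dcn*, and *Ptn* and *Bcan* are higher in cells.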

How the data were processed

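The neurohypophyses of 3-month-old male C57BL/6 mice were pooled, 5 mice per pool, and 2 pools were sequenced as single cells. For each pool a table of raw UMI counts was deposited, in which the authors had assigned reads on mm10 to genes and barcodes. The submitters' processing notes name Cell Ranger 1.2.1, 2.0.0 and 2.1, STAR 2.5.1b and Seurat 2.3. The authors also deposited the mean of each gene in 11 clusters over both pools, in UMIs per 10000. The 9 genes, the lists and the tests were chosen with earlier results of these data known.

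The limits of the study were applied (UMIs from 1000 to 10000, genes from 400 to 5000, mitochondrial UMIs under 25%), which left 528 cells with 699676 UMIs in pool 1 and 726706 in pool 2. Each cell was given its cluster by non-negative weights on the deposited means. Every cell had a weight of at least 0.989 in 1 cluster, and the 11 clusters were joined to the 7 types of the study. The 1 cluster of VLMC is the one with *Lum*. The paper lists *Ogn*, *Lum* and *Dcn* as known markers of VLMC. Their levels in VLMC were thus part of what formed and named the cluster. Doublets were marked with Scrublet (scanpy 1.11.5; 3 cells) and kept.

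Counts were summed per type and pool (14 sums) and scaled to CPM. Shares of cells have exact Clopper-Pearson intervals, sums of counts exact Poisson intervals, both at the 95% level and for counting error only, and where no UMI was seen the level that 3 counts would give is stated. Cells were thinned to 1000 UMIs at random; none had fewer. Pathway genes were tested with edgeR 4.0.16 (R 4.3.3; quasi-likelihood test, TMM, minimum count 5, minimum total 15), which kept 7 of the 9 genes and 4510 in all. The contrast for a type was its own mean less that of the other 6 types. Genes were called where the p, adjusted by Benjamini and Hochberg, did not exceed 0.05, with an ln fold change of at least 1 in either direction. The fit was also run on simulated counts, in which all types shared 1 mean profile and only some genes of 1 type were changed. That is simpler than these data, so it does not show how the fit performs on them. Sums of 1 pool share mice and library and are paired by this. Across genes, pool 2 less pool 1 was correlated between types with r from -0.035 to 0.148 in the 21 pairs. P-values from 2 pools measure only the spread between these pools.

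Named pathway genes are, per type and list, up to 3 of those called higher and highest in both pools, by fold change. The genes most like a member are the 3 with the largest correlation, for members with at least 50 UMIs. Alternatives were a new clustering with Seurat 5.3.0, the mean over cells, TMM scaling, a mitochondrial limit of 10%, removal of doublets, each pool alone, subtraction of free RNA, thinning, DESeq2 1.42.0, other size factors, no filter and the pool as a block. Leaving out the 3 VLMC cells with oligodendrocyte markers was chosen after seeing the data. No protein sequences were used here. Values of 1 marker gene are not reported here.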

Additional observations from a re-analysis of the deposited data

Results flagged for a closer look

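The comparisons use the kept cells only, and UMIs of the genes also appeared in barcodes that were not kept, in numbers above the limit of 3 counts that a count of 0 allows. In the barcodes of pool 1 with 1 to 50 UMIs there were 1430 UMIs of *Ptn*, 530 of *Gpc3*, 158 of *Bcan*, 22 of *Cspg5* and 4 of *Vcan*, together with 577 of *Dcn*, 311 of *Lum* and 51 of *Ogn*. The kept cells of that pool held fewer UMIs of each of these genes. They had 1043 of *Ptn*, 235 of *Gpc3*, 131 of *Bcan*, 17 of *Cspg5*, 2 of *Vcan*, 78 of *Dcn*, 42 of *Lum* and 8 of *Ogn*. The barcodes with 1 to 50 UMIs held 1892289 UMIs in all, against 699676 in the kept cells, so raw counts alone do not set any of the genes apart.

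In the 56 barcodes of pool 1 and 27 of pool 2 that failed only the mitochondrial limit, there were 301 UMIs of *Ptn*, 122 of *Gpc3*, 59 of *Bcan* and 5 of *Dcn*. In pool 1 these barcodes had 2176 CPM of *Ptn*, 482 CPM of *Bcan* and 1004 CPM of *Gpc3*, and in pool 2 they had 1589, 199 and 397 CPM. In pool 1 47 of the 56 held *Ptn*, and in pool 2 16 of the 27.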

How the results depend on the processing

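The number of members highest in VLMC (6) and in pituicytes (3) did not change with the mean over cells, TMM scaling, a mitochondrial limit of 10%, doublets removed, free RNA subtracted or thinned cells. With 1 pool left out it ranged from 4 to 6 for VLMC and from 3 to 5 for pituicytes, because *Ncan* and *Vcan* had no VLMC UMI in pool 1. Without the 3 VLMC cells with oligodendrocyte markers it was 4 for VLMC and 4 for pituicytes. When the cells were clustered again, 470 of 528 had the same name, no cluster was named VLMC and 6 members were highest in pituicytes among the 4 named types. Of 84 values of members in their leading type, 61 moved by less than 1 SD of the pools. That count does not measure stability. Leaving out 1 pool moves a mean of both pools by less than their SD in every case. Removing doublets left the VLMC values unchanged, as no VLMC cell was marked. The 3 VLMC cells have no part in pituicyte values. *Ncan* and *Vcan* in VLMC fell from 33.1 to 0 CPM without these 3 cells, within the SD of 46.8 CPM, and were among the 61.

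The number of pathway genes called higher in at least 1 type was 20 of 24 tested (52.2% of all genes), and 12 with DESeq2 (32.7% of all genes), 35 of 81 tested without the filter (32.5%), 11 of 13 at the mitochondrial limit of 10% (48%) and 26 of 34 when clustered again (42.5%), 15 of them shared with the 20. The number called lower was 2 (8.16% of all genes), 4 with DESeq2 (7.72%) and 5 when clustered again (13.4%). It was 0 with DESeq2 size factors in edgeR (8.43%), without the filter (1.8%) and at the limit of 10% (9.53%). With the pool as a replicate block (7.56%) and with doublets removed (8.04%) it was 1. With so few genes tested, these small counts are not read as differences. The replicate block left the 20 genes called higher (50.5% of all genes), and the sum of their calls over the 7 types went from 40 to 38. Of the calls of pathway genes, summed over the 7 types, 95.2% were higher, and 80.8% with DESeq2. Over all genes tested, 2354 were called higher and 368 lower in at least 1 type, and with DESeq2 1475 and 348. Scaling by library size alone moved the median log2 fold change of all genes by between -0.48 (macrophage/microglia) and 0.75 (vascular endothelia). Leaving out a pool left 1 sum per type and no test. The causes of these changes were not tested. Depth limits VLMC (8491 and 15098 UMIs in the pools) and vascular endothelia (11346 and 12488).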
